A study of Homo sapiens with 24 samples.

Results

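The genes described here are BCL11A and its paralogue BCL11B, each taken with 20 kb on either side of its RefSeq gene record (GRCh38). Every peak that overlapped these windows in any of 24 CUT&RUN peak lists was kept, whatever its height. Merging peaks that shared at least 1 base gave 13 regions at BCL11A and 0 at BCL11B, of 79570 regions in all lists. The BCL11A record runs from 60450520 to 60553924 on chromosome 2, minus strand, so its 5′ end is 60553924. The BCL11B record runs from 99169287 to 99272197 on chromosome 14, also minus strand.

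CUT&RUN uses an antibody to tether a nuclease to chromatin, and the released DNA is sequenced. The cells were HUDEP-2, an immortalised line of human erythroid progenitors, in 3 genome-edited versions that are each a single clone. Clone T carries TR4 (gene NR2C2) tagged at its C terminus with 3FLAG3MYC, and its BCL11A has no tag. Clone TB carries that TR4 and BCL11A tagged with 3HA3MYC, and clone B carries the tagged BCL11A alone. The BCL11A gene is thus itself edited in clones TB and B. All clones were grown in the same medium with SCF, EPO, dexamethasone and doxycycline and received no other treatment. The TR4-directed libraries used the MYC or TR4 antibody in clone T and the TR4 antibody in clone TB (3 libraries each, 9 in all). The BCL11A-directed libraries used the HA antibody in clone TB and the HA or MYC antibody in clone B (3 each, 9 in all). In clone TB both proteins carry MYC, so its 3 MYC libraries were kept apart, and IgG gave 1 library per clone. Whether the 3 libraries of a group are separate cultures is not stated. The p-values thus reflect the spread among these libraries, which may be technical.

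BCL11A is a zinc finger repressor of the fetal γ-globin genes and a main factor in the switch from fetal to adult haemoglobin. Its erythroid expression depends on an enhancer in its intron 2, whose parts are named by their distance in kb from the transcription start as +55, +58 and +62. The +58 part holds a GATA1 site, and disrupting it is used to raise fetal haemoglobin. BCL11B is a close relative known for its role in T-cell commitment in the thymus, and it is not an erythroid gene. TR4 is an orphan nuclear receptor that binds direct repeats of the half-site AGGTCA, and TGACCA is a known BCL11A motif.

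The lists held 4621 to 14924 peaks in TR4-directed libraries, 12284 to 31432 in BCL11A-directed libraries and 2036 to 4828 in IgG libraries. Read counts were not analysed here, so the depth is unknown and no interval that needs it is given. The 3 shortest target lists were the replicate 3 libraries of the TR4-directed groups (4621 to 6944 peaks). Fold enrichment and −log10 q are the authors' values for each peak, and were used only within a list. Expression was not analysed here, so the cell type could not be checked by level. At gene ends (within 1 kb of either end of the record), 2 of 6 erythroid marker genes had a peak in at least 5 of 9 TR4-directed libraries and 5 of 6 in at least 5 of 9 BCL11A-directed libraries. Of all protein-coding genes, 26% and 41.9% did. EPOR had 9 of 9 TR4-directed libraries and 9 of 9 BCL11A-directed ones, KLF1 had 8 and 9, and TAL1 had 1 and 9. GATA1 and SLC4A1 had 0 of 9 TR4-directed libraries and 9 of 9 BCL11A-directed ones, and ALAS2 had none. Of these 6 markers, 3 (GATA1, TAL1 and KLF1) are also in the list of upstream regulators of BCL11A described later.

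The sequence under the promoter peaks is shown because the TR4-directed and BCL11A-directed summits lay at different places in it. RefSeq gives 5 start positions for BCL11A, and the peaks straddled the second from the 5′ end, at 60553654. The first line gives the 120 bases before that start (chr2:60553655-60553774, minus strand, GRCh38.p14, from RefSeq), with matches to TGNCCA and to the CCAAT box (read here as ATTGG) in capitals. The second gives the stretch from the lowest to the highest TR4-directed summit (chr2:60553609-60553633, minus strand), with no capitals.
Before the start: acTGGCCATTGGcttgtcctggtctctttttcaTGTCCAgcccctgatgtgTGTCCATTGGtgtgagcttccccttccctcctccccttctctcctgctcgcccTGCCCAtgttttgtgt
TR4-directed summits: tgacgttcaagttcgcagggacgtc
Both strands of the 300-base RefSeq promoter of this start were searched. TGACCA had 0 matches there, and 10.7% of all 34943 RefSeq promoters of that length held at least 1. The half-site AGGTCA had 0 matches (13.8% of promoters held one) and GATAA had 0 (22.8%). The looser TGNCCA had 6 matches (42.6% of promoters held at least 1). Of these 6, TGGCCA counts once on each strand, and 1 lies after the start. Each CCAAT match shares a base with a TGNCCA match, and there were 2 (34.6% of promoters held at least 1). A match is only a description of the letters.

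Both proteins had a peak at the BCL11A promoter. Within 1 kb of the 5′ end, 6 of 9 TR4-directed libraries and 9 of 9 BCL11A-directed ones had one, as did 3 of 3 MYC libraries of clone TB. No IgG library had one (0 of 3). The difference missed the threshold (two-sided Fisher's exact test, p = 0.206; adjusted p = 0.453 over all gene ends tested). Of all 20037 protein-coding genes, 22.8% had a gene-end peak in at least 6 TR4-directed libraries, 18.9% in all 9 BCL11A-directed libraries and 13.4% met both conditions. The libraries without the peak were the replicate 3 libraries of all 3 TR4-directed groups, which are also the shortest lists. With replicates 1 and 2 alone the promoter peak was present in 6 of 6 TR4-directed and in 6 of 6 BCL11A-directed libraries. When each list was reduced to the 4621 peaks of highest −log10 q, the length of the shortest, the promoter peak remained in 0 of 9 TR4-directed libraries and in 1 of 9 BCL11A-directed ones (Fisher's exact test, p = 1).

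The promoter region spanned 60553538 to 60553787. With the MYC antibody in clone T, the fold enrichment was 6.48 and 7.83 in replicates 1 and 2. With the TR4 antibody it was 8.28 and 10.2 in clone T and 8.22 and 9.59 in clone TB, again in replicates 1 and 2. These folds stood between percentiles 32.7 and 58.4 of their own lists, so the promoter was a middling TR4 peak. With the MYC antibody in clone TB it was 14.5, 13.6 and 11.1. In BCL11A-directed libraries, the HA antibody gave 12.1, 19.4 and 7.43 in clone TB. In clone B the HA antibody gave 14.5, 12.9 and 9.16, and the MYC antibody 16.8, 10.6 and 7.78. All 9 stood above the median of their lists, at percentiles 52.0 to 91.3. No test was made between the folds of separate lists.

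The 2 proteins' promoter summits did not overlap in position. The 6 TR4-directed summits lay between 60553609 and 60553633, which is 21 to 45 bases downstream of the RefSeq start. The 9 BCL11A-directed summits lay between 60553658 and 60553730, which is 4 to 76 bases upstream of it. The mean TR4-directed position was 77.6 bases farther downstream, with an SD of 7.88 bases in TR4-directed (n = 6) and 25.2 bases in BCL11A-directed libraries (n = 9). This comparison was added after the data were seen. An exact permutation test (two-sided) gave p = 0.0002, and the Benjamini-Hochberg adjusted p was 0.00959 over 9468 regions with at least 3 libraries of each target. In that test 7.55% of regions were called in either direction, and in 4.46% the ranges did not overlap. The size of the shift at BCL11A was above that of 88.3% of these regions, whose median was 21.2 bases.

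The same order of summits was found within clone TB and within the MYC antibody. In clone TB the TR4 antibody gave summits 37 and 34 bases downstream of the start, against 4, 28 and 76 bases upstream with the HA antibody (exact permutation test, p = 0.2, with 2 and 3 libraries). With the MYC antibody, clone T gave 21 and 45 bases downstream and clone B 49, 28 and 32 bases upstream (exact permutation test, p = 0.1, the smallest that 2 against 3 libraries allow). With both proteins tagged, the MYC libraries of clone TB had summits 17 and 37 bases downstream and 52 bases upstream, so they lay on both sides of the start. The one at 17 bases fell in neither target's range. Peak edges differed too. TR4-directed peaks reached 1 to 62 bases upstream of the start and BCL11A-directed peaks 87 to 133 bases. TR4-directed peaks were 95 to 132 bases wide and BCL11A-directed peaks 144 to 228. The part of peak width or read depth in the summit shift was not tested.

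**Figure D1:**
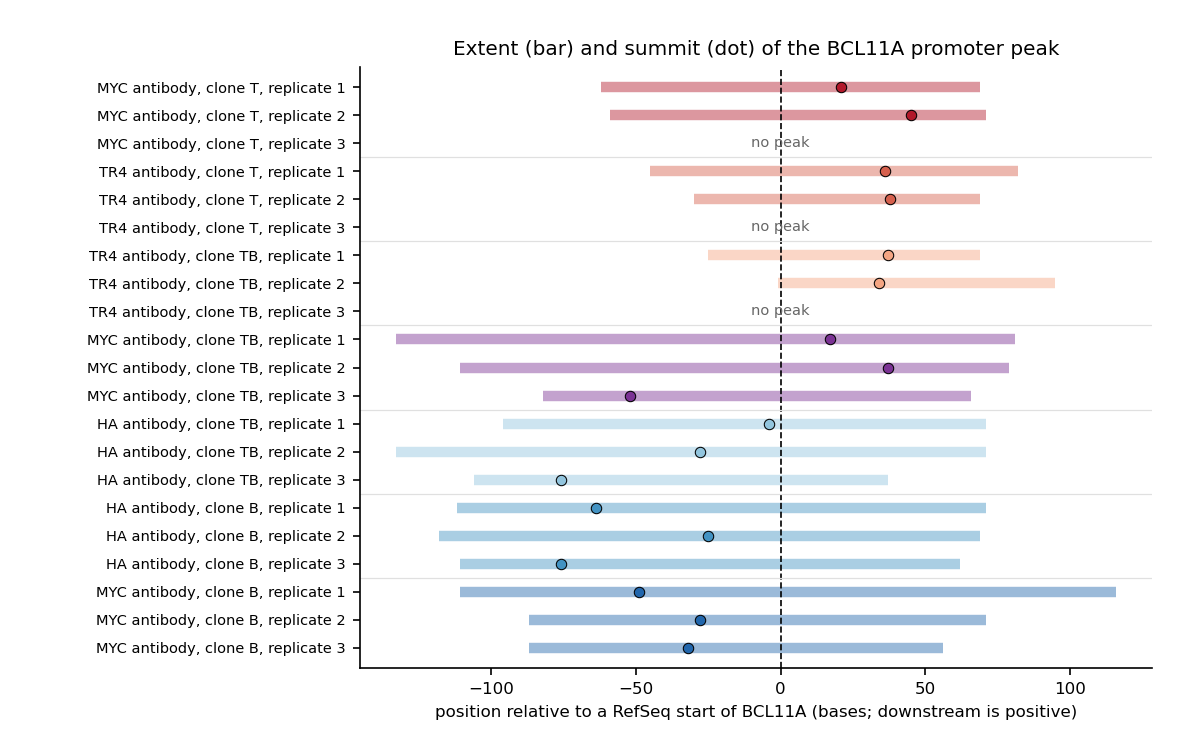
Extent (bars) and summit (dots) of the BCL11A promoter peak in the 18 of 21 target libraries that have one, in bases from the RefSeq start at 60553654, with downstream positive. All 6 TR4-directed summits lie 21 to 45 bases downstream and all 9 BCL11A-directed summits 4 to 76 bases upstream, while the MYC libraries of clone TB lie on both sides.

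Beyond the promoter, no TR4-directed library had a peak anywhere in the BCL11A window. The 13 regions held 52 peaks, of which 6 were TR4-directed, 40 BCL11A-directed and 6 from the MYC libraries of clone TB. The 6 TR4-directed peaks were the promoter peaks, so 1 of 13 regions had a TR4-directed peak and 13 of 13 a BCL11A-directed one. BCL11A-directed lists are longer (median 25850 peaks against 11488). The share of all regions with a peak of each target is not given here, so these counts are a description only. No IgG library had a peak in any of them. Of the 13 regions, 7 had a peak in a single library and 1 in 2 libraries. The 5 others recurred in 6 or more libraries and were tested. Of these 5, 2 were called as BCL11A-directed (Benjamini-Hochberg adjusted Fisher's exact test over 24485 regions), beside 25.6% of all regions tested and 2% called in the other direction. Neither of the 2 was called with no minimum number of libraries. Only 1 of the 2 was called when labels were permuted within replicate numbers alone. With MYC libraries left out or lists of equal length, both had peaks in fewer than 4 libraries and were not tested. A count of 13 regions was above that of 92.2% of protein-coding genes (median 4), and above that of 86.1% of the 3356 genes with a record of at least 100 kb (median 5).

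**Figure D2:**
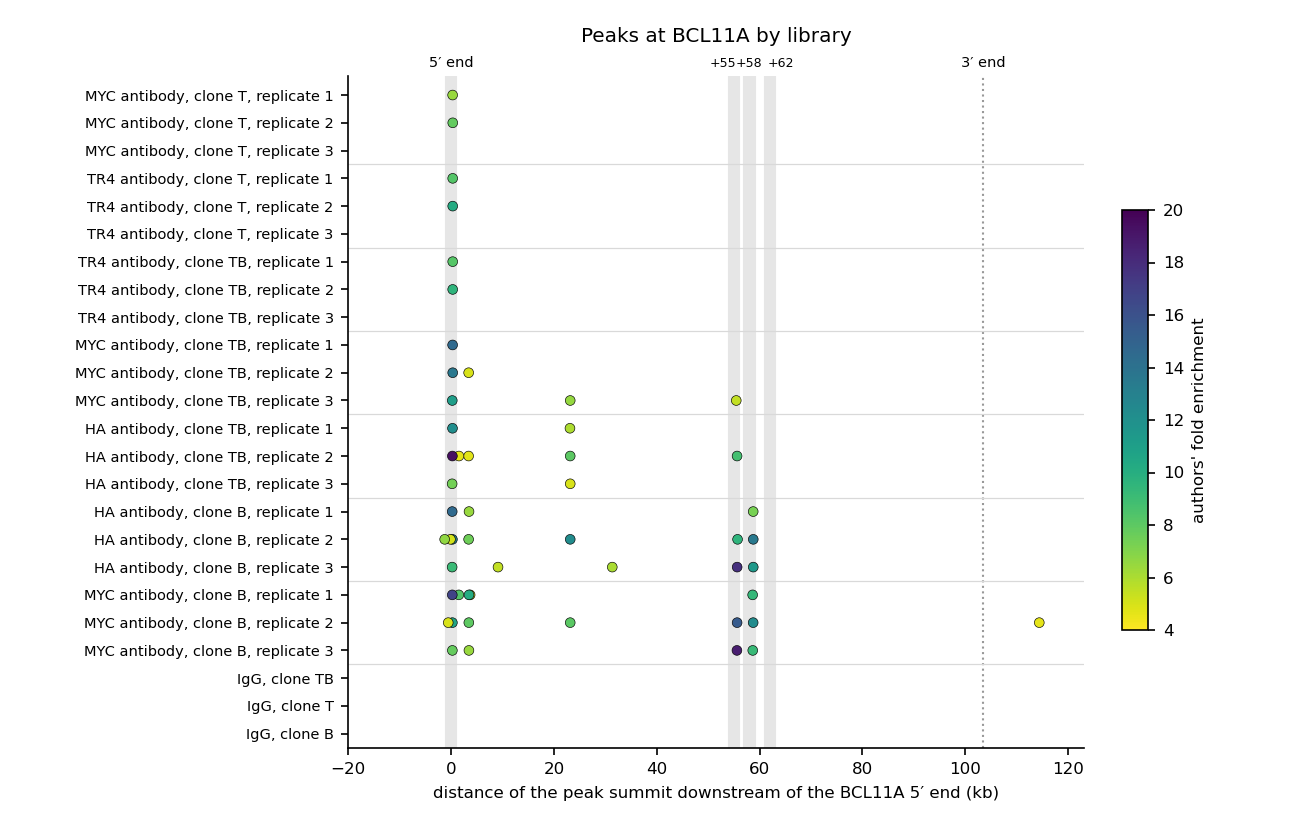
Peak summits in the BCL11A window in all 24 libraries by distance downstream of the 5′ end in kb, coloured by the authors' fold enrichment; grey bands mark 1 kb around the 5′ end and around +55, +58 and +62 kb. TR4-directed libraries (top 9 rows) have peaks at the promoter only, and the +58 peaks stand in the 6 HA and MYC libraries of clone B.

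At the +58 part of the erythroid enhancer, peaks were found with BCL11A in clone B and in no other library. The region ran from 60495144 to 60495415, with a median summit 58.7 kb downstream of the 5′ end. It was listed for 0 of 9 TR4-directed libraries and 6 of 9 BCL11A-directed ones (Fisher's exact test, two-sided, p = 0.00905; adjusted p = 0.0328 over all regions tested). All 6 come from clone B, which has no TR4-directed library. In clone TB, 0 of 3 TR4 and 0 of 3 HA libraries had the peak, so target and clone cannot be told apart here. The HA antibody in clone B gave folds of 7.26, 13.5 and 11.4 (−log10 q 7.92, 21.8 and 16.9). The MYC antibody in clone B gave 9.36, 12.3 and 9.25 (−log10 q 12.7, 19.2 and 11.9). All 6 summits lay between 60495170 and 60495286. Without replicate 3 of every group the difference no longer passed, with 0 of 6 TR4-directed libraries and 4 of 6 BCL11A-directed ones (Fisher's exact test, p = 0.0606). It was also lost with MYC libraries left out (p = 0.182, Fisher's exact test), with lists of equal length (p = 1) and in a window of 500 bases on either side of 58 kb, which the region lies outside. When labels were permuted within replicate numbers alone (exact permutation test), the adjusted p over all regions was 0.0535, which did not pass.

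The +58 peak separated the clones that carry tagged BCL11A. Clone TB had it in 0 of 3 HA and 0 of 3 MYC libraries, and clone B in 3 of 3 and 3 of 3. Over HA and MYC together, 0 of 6 libraries of clone TB and 6 of 6 of clone B had the peak (Fisher's exact test, p = 0.00216). That test counts HA and MYC libraries as separate units, although both antibodies read the same tagged BCL11A. With HA alone p was 0.1 (Fisher's exact test), the smallest that 3 against 3 libraries allow. Adjusted over the 24962 regions compared between the clones, Fisher's exact test of 6 against 6 libraries did not pass (adjusted p = 0.447). No region passed there (0% in either direction), while 262 regions (1.05%) had an unadjusted p under 0.05 with more libraries of clone TB and 323 (1.29%) with more of clone B. The pattern of 0 against 6 was shared by 0.248% of regions, and its reverse was held by 0.236%. The lists held 15163 to 27021 peaks in clone TB and 12284 to 31432 in clone B, so the ranges overlap. When only the 12284 peaks of highest −log10 q of each list were used, 0 of 6 and 4 of 6 libraries had the peak (p = 0.0606, Fisher's exact test). Clone TB differs from clone B in the TR4 tag and in being another clone, and these cannot be told apart. This comparison was added after the data were seen.

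At the +55 part, no TR4-directed library had a peak, and clones TB and B both had some. The region ran from 60498160 to 60498619, with a median summit 55.6 kb downstream of the 5′ end. TR4-directed libraries had a peak in 0 of 9 and BCL11A-directed libraries in 5 of 9 (Fisher's exact test, p = 0.0294), which did not pass over all regions (adjusted p = 0.0731). The unadjusted p also rose to 0.471 with lists of equal length (0 of 9 and 2 of 9 libraries), to 0.206 in 500-base windows and to 0.182 with MYC libraries left out or with replicates 1 and 2 alone (Fisher's exact test). In clone TB, HA replicate 2 had a fold of 8.77 and MYC replicate 3 one of 5.47. These 2 peaks did not overlap each other (60498218 to 60498359 and 60498420 to 60498531). In clone B, HA replicates 2 and 3 had folds of 9.59 and 17.8, and MYC replicates 2 and 3 had 15.5 and 18.7. Replicate 1 had no peak here with either antibody in either clone. Between the clones, 2 of 6 libraries of clone TB and 4 of 6 of clone B had the peak (Fisher's exact test, p = 0.567). With the 12284 peaks of highest −log10 q of each list, 0 of 6 and 3 of 6 had it (Fisher's exact test, p = 0.182).

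Within a list, the enhancer peaks could exceed the promoter peak. In replicate 3 of clone B the +55 fold was 1.94 times the promoter fold with HA and 2.41 times with MYC. It ranked 664 of 12284 and 639 of 13429 peaks there, against ranks of 4135 and 6379 for the promoter. Over the 6 lists with a +55 peak, its fold was 0.452 to 2.41 times the promoter fold, and higher in 3. Both lists of clone TB were among the lower ones, at 0.452 (HA) and 0.494 (MYC). Over the 6 lists with a +58 peak it was 0.5 to 1.24 times the promoter fold, and higher in 4. The 2 lists in which it was lower were replicate 1 of HA and of MYC in clone B. At +62, within 1 kb of 62 kb, no library of any group had a peak.

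**Figure D3:**
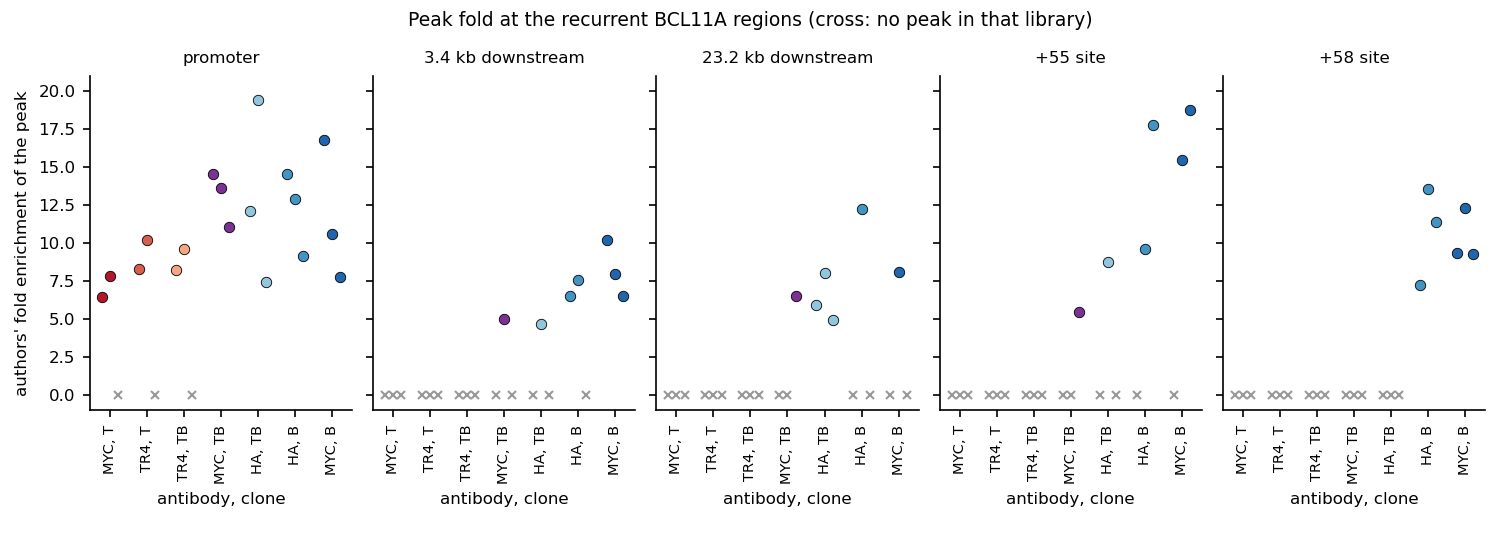
The authors' fold enrichment of each peak at the 5 recurrent BCL11A regions, by group of 3 libraries, with a cross at 0 for a library without a peak. TR4-directed groups (3 at the left of each panel) have points at the promoter only, and at +58 the 6 points are those of clone B (7.26 to 13.5).

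Both remaining recurrent regions lay closer to the 5′ end and had no TR4-directed peak. One ran from 60550400 to 60550549, with a median summit 3.44 kb downstream of the 5′ end and 423 bases downstream of the RefSeq start at 60550907. TR4-directed libraries had a peak there in 0 of 9 and BCL11A-directed libraries in 6 of 9 (Fisher's exact test, p = 0.00905; adjusted p = 0.0328). In clone TB, 1 of 3 MYC libraries (fold 4.99) and 1 of 3 HA libraries (4.70) had it. In clone B, HA replicates 1 and 2 had folds of 6.49 and 7.54, and the 3 MYC libraries had 10.2, 7.98 and 6.49. With peaks of −log10 q of at least 5 alone, this region was not called (0 of 9 and 5 of 9 libraries, Fisher's exact test, adjusted p = 0.0707). These folds stayed below the promoter fold of the same list in every one of the 7 libraries. Over HA and MYC together, 2 of 6 libraries of clone TB and 5 of 6 of clone B had a peak in this region (Fisher's exact test, p = 0.242). Clone B has no TR4-directed library, so target and clone cannot be fully told apart here either.

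The other recurrent region was found in clone TB with HA in every library. It ran from 60530730 to 60530851, with a median summit 23.2 kb downstream of the 5′ end. That is 2232 bases upstream of the most internal RefSeq start, at 60528535. TR4-directed libraries had a peak in 0 of 9 and BCL11A-directed libraries in 5 of 9 (Fisher's exact test, p = 0.0294; adjusted p = 0.0731). In clone TB the HA folds were 5.95, 8.04 and 4.97, and MYC replicate 3 had 6.54. In clone B replicate 2 alone had a peak, with a fold of 12.3 for HA and 8.09 for MYC. Clone TB thus had it in 4 of 6 libraries and clone B in 2 of 6 (Fisher's exact test, p = 0.567). The RefSeq promoter of that internal start held 1 match to TGACCA (10.7% of all RefSeq promoters held at least 1), and none of the 4 other BCL11A promoters held one. That match, at 60528539 to 60528544, lies outside the region, whose own sequence was not searched.

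The 8 regions with a peak in 1 or 2 libraries had folds of 4.66 to 8.36 and were all BCL11A-directed. One, from 60552306 to 60552488, lay 293 bases downstream of the RefSeq start at 60552714 and had a peak in HA replicate 2 of clone TB (fold 4.67) and MYC replicate 1 of clone B (8.36). Another, from 60439497 to 60439618, lay beyond the 3′ end of BCL11A inside the record of its neighbour LOC124906010, in MYC replicate 2 of clone B.

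Scaled by list length, TR4-directed libraries had fewer peaks in the BCL11A window. They had 0 or 1 peak each and BCL11A-directed libraries 2 to 7. Per 1000 listed peaks this was 0 to 0.113 (median 0.0701) in TR4-directed and 0.0831 to 0.407 (median 0.185) in BCL11A-directed libraries. The ranges overlap slightly. The means were 0.0556 ± 0.0437 and 0.206 ± 0.100 (SD, n = 9 each; exact permutation test, two-sided, p = 0.000247; adjusted p = 0.00158 over 14287 protein-coding genes). In that test 20% of genes were called with more BCL11A-directed and 21.7% with more TR4-directed peaks. The difference was −0.150 per 1000, and −0.0862 with replicates 1 and 2 alone (exact permutation test, p = 0.013). With lists of equal length it did not pass (−0.0962, exact permutation test, p = 0.206). The clones with tagged BCL11A also differed. Their HA and MYC libraries had 0.111 ± 0.0526 in clone TB and 0.242 ± 0.102 in clone B (SD, n = 6 each, exact permutation test, unadjusted p = 0.0152). Clone B has no TR4-directed library, so target and clone cannot be fully told apart in the comparison of 9 with 9 libraries. Within clone TB the TR4 antibody gave 0.0580 ± 0.0502 and the HA antibody 0.133 ± 0.0510 (SD, n = 3 each; exact permutation test, p = 0.3, where 3 against 3 cannot go below 0.1).

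**Figure D4:**
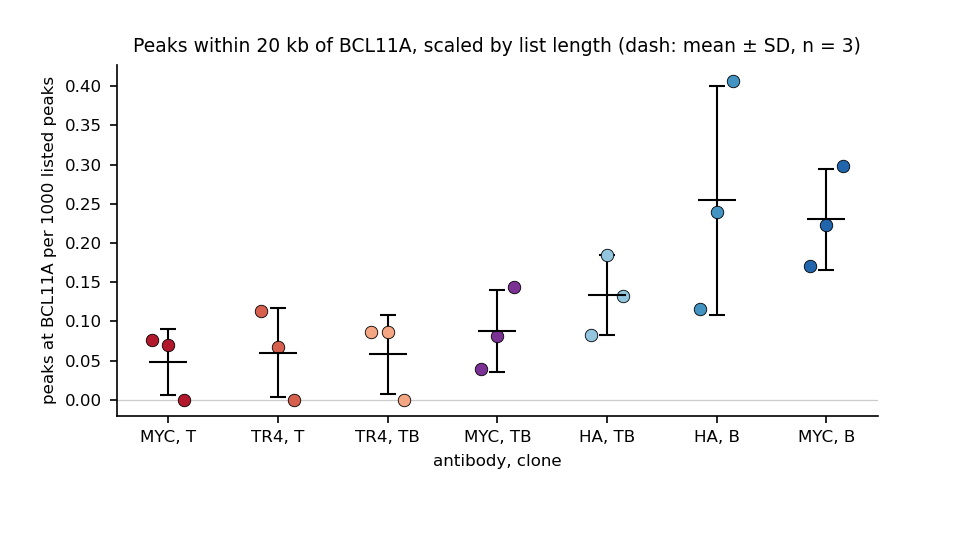
Peaks in the BCL11A window per 1000 peaks of each list, by antibody and clone (points: libraries; dash and bars: mean ± SD, n = 3). TR4-directed groups at the left reach 0.113 at most, and the highest library, HA replicate 3 of clone B, reaches 0.407.

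BCL11B had no peak in any of the 24 libraries. Its window held 0 regions for TR4-directed, BCL11A-directed, MYC libraries of clone TB and IgG alike. This includes the promoter and both noncoding genes in the window, LOC124903412 and LOC105370660. The peaks nearest to the record lay 83.0 kb beyond its 3′ end (99086180 to 99086273, MYC replicate 1 of clone B alone) and 188.7 kb beyond its 5′ end. The one beyond the 5′ end (99460897 to 99461151) was found in 5 BCL11A-directed libraries and 1 MYC library of clone TB. No peak of any library thus lay in a stretch of 374.6 kb. Of all protein-coding genes, 12% had no peak in the same window, and of those with a record of at least 100 kb, 3.78% (127 of 3356). The BCL11B promoter held 0 matches to TGACCA or TGNCCA, 0 to AGGTCA and 1 to GATAA.

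Genes known to act with BCL11B in the thymus had few peaks. Of 16 T-cell genes, 0 had a gene-end peak in at least 5 of 9 TR4-directed libraries and 0 in at least 5 of 9 BCL11A-directed libraries, where 26% and 41.9% of all protein-coding genes did. No gene-end peak of either target was found at 10 of the 16, and at 42.3% of all protein-coding genes. RAG1, a subunit of the V(D)J recombinase, had the most, with 0 TR4-directed and 4 BCL11A-directed libraries. CD8A, a T-cell coreceptor, had 3 and 0.

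A list of 15 genes was drawn up as upstream regulators of BCL11A, a role not tested here and not established for every member. Of these 15, 6 had a gene-end peak in at least 5 TR4-directed and 13 in at least 5 BCL11A-directed libraries. Of all protein-coding genes, 26% and 41.9% did. The medians were 4 and 9 libraries, against 0 and 2 over all protein-coding genes. In the test by gene end, 0 were called with more TR4-directed and 4 with more BCL11A-directed libraries (GATA1, TAL1, RUNX1 and NFIX), beside 0.856% and 10.7% of gene ends tested. GATA1, the erythroid factor that binds the +58 site, and NFIX each had 0 and 9 libraries (adjusted p = 0.00205, Fisher's exact test). TAL1, a partner of GATA1, had 1 and 9 and RUNX1 had 0 and 7. HIC2, a repressor of BCL11A, had 9 and 9, as did ZBTB7A and NFIA. Of 12 subunits of the NuRD corepressor, which BCL11A and BCL11B bind, 8 and 9 had a gene-end peak in at least 5 libraries of the target. Of all protein-coding genes, 26% and 41.9% did. Of the 10 subunits tested, 0 were called in either direction, beside the same 0.856% and 10.7% of gene ends. GATAD2A, GATAD2B and MBD2 each had 9 and 9.

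The genes whose gene-end peaks were most like the BCL11A promoter were WDR33, SFT2D3, VAMP1, CRY1 and REV1, of which 3 (WDR33, SFT2D3 and REV1) lie on chromosome 2 like BCL11A. Windows of neighbouring genes can hold the same peaks, and whether those of WDR33 and SFT2D3 do is not given here. The measure was the Spearman correlation of the fold's within-list percentile over the 21 target libraries, with 0 where no peak was listed. All points share the same lists, so the values describe these libraries only. The correlation was 0.953 for WDR33, 0.945 for SFT2D3, 0.934 for VAMP1, 0.926 for CRY1 and 0.922 for REV1. WDR33, a subunit of the mRNA 3′ end processing machinery, had 6 TR4-directed and 9 BCL11A-directed libraries, as BCL11A had. CRY1, a circadian repressor, also had 6 and 9.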

How the data were processed

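CUT&RUN was profiled in 24 libraries (21 target, 3 IgG). Trimmomatic, Bowtie2, Picard, SAMtools and MACS2 2.1.4 and build GRCh38 are named in the submitters' processing notes, without their roles. Each library has its own peak list, deposited by the authors with a fold enrichment (a linear ratio), a −log10 q-value and a summit offset for each peak. The authors' deposited score and −log10 p-value were not used. The lowest −log10 q of a target list was 2.00 to 2.05.

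Peaks sharing at least 1 base were merged; tests across regions omitted the 7349 that held an IgG peak. Regions and gene ends present in at least 4 of 18 libraries went into two-sided Fisher's exact tests, Benjamini-Hochberg adjusted at 0.05. Exact permutation tests compared means. A list with several peaks in a region gave its strongest one's summit. Gene records, strands and starts came from RefSeq tables of GRCh38.p14, which give no exons, so exon, intron or UTR is not stated for a region. Python 3.11.15 with scipy 1.17.1 was used. The alternatives tried were other thresholds, list lengths, windows, merging, antibodies and libraries. The genes and lists were chosen with earlier results of these data known. All regions at both genes were counted. The recurrent regions at BCL11A, some of its other regions, up to 3 members per list and the 5 most alike genes are named. Naming all 6 erythroid markers and all 4 called regulators goes beyond that limit and was decided after their values were seen.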

Additional observations from a re-analysis of the deposited data

Results flagged for a closer look

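The +58 enhancer peak differed between the clones that carry tagged BCL11A, with 0 of 6 HA and MYC libraries in clone TB and 6 of 6 in clone B (Fisher's exact test, p = 0.00216; adjusted p = 0.447 over all regions, which did not pass). The promoter peak was present in 6 of 6 libraries of both clones.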

How the results depend on the processing

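Differences are given as TR4-directed minus BCL11A-directed, in percentage points of libraries for windows. The +58 difference was −66.7 and passed at −log10 q of at least 5. It missed the threshold with MYC libraries left out (−50), equal list lengths (−11.1), 500-base windows (0) and replicates 1 and 2 alone (−66.7). The +55 difference (−55.6) missed it under the same settings, at −50, −22.2, −33.3 and −50. Peaks in the BCL11A window per 1000 missed it with equal list lengths (−0.0962). The clone difference at +58 (−100) missed it with HA libraries alone (−100, where Fisher's exact test of 3 against 3 libraries cannot go below p = 0.1), equal list lengths (−66.7) and 500-base windows (0). Called BCL11A regions numbered 2, but 1 at −log10 q of at least 5 (+58), 1 with replicates 1 and 2 alone (3.44 kb), and 0 with MYC libraries left out, equal list lengths or no minimum number of libraries. Over all regions, 489 were TR4-directed and 6258 BCL11A-directed calls. These became 112 and 1545 with MYC libraries left out and 1598 and 1486 with equal list lengths, and the TR4-directed calls 316 with no minimum. Leaving out 1 library gave 2 to 4 called BCL11A regions (4 without HA or MYC replicate 1 of clone B) and 559 to 795 TR4-directed calls (795 without MYC replicate 3 of clone T, and 785 and 761 without TR4 replicate 3 of clones T and TB). Without any 1 library the +58 (−75 to −62.5), +55 (−62.5 to −50), promoter summit (−82.4 to −73.4 bases) and per 1000 (−0.166 to −0.125) results kept their side of the unadjusted threshold. Beyond the smaller number of libraries or peaks that some settings leave, the causes of these changes were not tested. Replicates 1 and 2 alone, and all settings of the clone and summit results, were chosen after seeing the data.

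Same-numbered libraries did not deviate together throughout (r −0.087 to 0.462 over 21 pairs per number), though 19 of 21 correlated best with a library of their own number. With the replicate block, 1 BCL11A region was called in place of 2 (3.44 kb, adjusted p = 0.0354, while +58 had 0.0535), over all regions 507 and 6402 calls were made, and the p was 0.016 at +58, 0.02 at +55, 0.1 at the promoter, 0.001 for peaks per 1000 and 0.0025 for the summits (exact permutation within numbers).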
